A study of Homo sapiens with 6 samples.

Results

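Caspases are proteases that cut their substrates after aspartate, and they carry out programmed cell death. In the intrinsic pathway, cytochrome c released from mitochondria makes APAF1 assemble into the apoptosome, which activates the initiator caspase-9. In the extrinsic pathway, death receptors recruit the initiators caspase-8 and caspase-10, while caspase-2 is an initiator activated on the PIDDosome and caspase-6 is an effector. Caspase-1 and caspase-4 are inflammatory caspases, activated by inflammasomes and by intracellular lipopolysaccharide. The tumor suppressor p53 is known for raising several genes of this machinery, APAF1 among them.

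The genes described here are CASP1, CASP2, CASP4, CASP6, CASP8, CASP9, CASP10 and APAF1, which are 8 of the 57905 genes in the count matrix. They were chosen by symbol, through the gene identifiers that the deposited tables pair with symbols. RNA was taken from HCT116, an established human colorectal carcinoma line with wild-type p53, treated with the drug vehicle DMSO (Nut 0h) or with Nutlin-3a for 1 h (Nut 1h) or 10 h (Nut 10h). Nutlin-3a keeps p53 from its inhibitor MDM2. There were 2 biological replicates per time point, so 6 libraries in all, and the sources used here do not say whether replicates came from separate cultures, so that p-values measure only the spread between these libraries. All groups are unmodified cells of a single line.

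The deposited values are raw read counts per gene. A normalized count, as used below, is the count divided by the library's TMM-scaled size (edgeR's trimmed mean of M-values) and multiplied by the mean scaled size. Of the 8 genes, 7 passed edgeR's low-count filter and were tested over all 6 libraries. Calls were made at 0.05 on the adjusted p (quasi-likelihood test, Benjamini-Hochberg over all 16565 tested genes).

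Library totals lay between 26068076 and 35473485 counts, lowest in the Nut 1h libraries, whose mitochondrial share (8.15% and 8.44%) was the highest. CDKN1A, a p53 target that inhibits cyclin-dependent kinases, went from a mean of 9958 normalized counts in vehicle to 142606 at Nut 10h, and MDM2 from 1886 to 25290. After 1 h CDKN1A was at 10282 (0.05 in log2, adjusted p = 0.704, edgeR, and 0.69 with the GC-content offset described below), and MDM2 was at 8597 (2.19, adjusted p = 3.54e-08, edgeR). In bulk RNA, fewer cells of a type and less RNA per cell cannot be told apart. The epithelial genes EPCAM, CDH1, KRT8, KRT18 and KRT19 were abundant, whereas the intestinal markers CDH17, VIL1 and LGALS4 had at most 15 counts in any library. Summed over all 8 epithelial markers, the level was 163216 and 192206 normalized counts in vehicle, 111558 and 121355 after 1 h, and 205060 and 245791 after 10 h. The single genes went both ways after 1 h, in log2 EPCAM by 0.46, CDH1 by 0.51, KRT8 by -0.71, KRT18 by -0.36 and KRT19 by -0.98. With the offset these values were 0.03, 0.38, -0.19, 0.11 and -0.03. Of 6 blood cell markers the summed level was between 3.78 and 81.2 normalized counts, almost all of it LYZ in the Nut 0h libraries, with PTPRC at 0 to 2 counts. The fibroblast markers summed to between 787 and 1405, nearly all COL1A1, with DCN and LUM at 0 in every library. Endothelial markers summed to between 12 and 22.2. The part of other cells in the results below was not tested.

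At Nut 1h the log2 fold change of a gene followed the GC content of its transcript (Pearson r = -0.69 across the tested genes, which are not independent replicates), and at Nut 10h it did not (r = -0.03). The Nut 1h log2 fold changes of the members are therefore given a second time with a GC-content offset, a smooth trend fitted in each library and removed from the fit. Whether the trend is technical was not tested.

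The starts of transcription of 6 of the 8 genes matched the RefSeq promoter table of GRCh38.p14, which gave 10 windows of 300 bases, from 250 before to 50 after each start. The following 4 windows are shown because APAF1 and CASP2 are the members that moved furthest in opposite directions at Nut 10h, and because the CASP8 and CASP9 windows are the only ones of the 10 with a match to the p53 half-site. Capitals mark that half-site in CASP8 and CASP9, and the GC box GGGCGG on either strand in APAF1 and CASP2.
APAF1, chr12:98645040-98645339, plus strand: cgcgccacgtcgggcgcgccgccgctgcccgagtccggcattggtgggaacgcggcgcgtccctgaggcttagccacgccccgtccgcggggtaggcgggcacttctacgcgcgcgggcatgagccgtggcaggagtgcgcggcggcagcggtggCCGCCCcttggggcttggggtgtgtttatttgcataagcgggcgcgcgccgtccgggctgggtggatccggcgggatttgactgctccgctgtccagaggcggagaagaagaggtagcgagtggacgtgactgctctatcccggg
CASP2, chr7:143288101-143288400, plus strand: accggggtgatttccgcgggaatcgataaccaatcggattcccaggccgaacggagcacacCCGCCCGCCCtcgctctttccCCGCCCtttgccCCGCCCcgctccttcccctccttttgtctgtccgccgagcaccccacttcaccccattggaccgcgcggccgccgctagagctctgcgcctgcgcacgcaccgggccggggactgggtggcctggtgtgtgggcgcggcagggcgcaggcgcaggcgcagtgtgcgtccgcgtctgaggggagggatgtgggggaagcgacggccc
CASP8, second start, chr2:201257785-201258084, plus strand: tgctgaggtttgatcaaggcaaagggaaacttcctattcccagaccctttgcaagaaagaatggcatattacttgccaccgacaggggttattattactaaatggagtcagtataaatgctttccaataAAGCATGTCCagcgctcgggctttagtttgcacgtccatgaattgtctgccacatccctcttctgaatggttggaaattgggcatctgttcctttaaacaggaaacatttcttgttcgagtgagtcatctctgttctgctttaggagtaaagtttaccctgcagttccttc
CASP9, second start, chr1:15524741-15525040, minus strand: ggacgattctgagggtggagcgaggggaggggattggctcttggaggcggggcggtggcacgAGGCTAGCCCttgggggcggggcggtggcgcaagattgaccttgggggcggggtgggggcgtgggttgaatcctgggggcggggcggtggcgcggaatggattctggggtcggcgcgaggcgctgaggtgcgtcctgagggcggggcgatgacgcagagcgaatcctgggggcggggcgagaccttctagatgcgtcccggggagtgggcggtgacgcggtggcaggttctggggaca

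The p53 half-site was searched on both strands and occurred in 6.63% of the 35116 RefSeq promoter windows. The CASP8 match, AAGCATGTCC, began 121 bases before the second start, and the CASP9 match, AGGCTAGCCC, began 188 bases before the second start. The APAF1 window held no half-site, 1 GC box and no TATA sequence (TATAAA). Over all windows the GC box was present in 45.0% and the TATA sequence in 11.5%. There were 4 GC boxes in the CASP2 window and 9 in the shown CASP9 window, and 1 TATA sequence in the shown CASP8 window. An E2F-type sequence, TTTGGCGC, present in 0.652% of windows, was in none of the 10. The shown windows of APAF1 and CASP2 had a GC content of 71.3%, and that of CASP8 43.0%. CASP2 has a second start in the table, whose window had 43.0% GC and 0 GC boxes, and the other windows of CASP8 had 46.3% and 54.3% GC. These matches describe the letters of the windows and are not evidence of binding.

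Of the 7 tested genes, 6 were called at Nut 1h against Nut 0h, 5 higher and 1 lower, where 66.9% of all tested genes were called (34.5% higher, 32.3% lower). Their median log2 fold change was 0.56, against 0.05 over all tested genes. Under the GC-content offset 2 of the 7 were called, CASP10 higher and APAF1 lower, where 45.4% of the genes with a GC content were called (20% higher, 25.4% lower), and the median was 0.00595. At Nut 10h against Nut 0h 5 of the 7 were called, 4 higher and 1 lower, where 29% of all tested genes were called (14.1% higher, 14.9% lower). The median was 0.37, against 0.000174 over all tested genes, and the same 5 genes were called with the offset, where 39.9% of genes were (17.1% higher, 22.8% lower). Both comparisons share the Nut 0h libraries.

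**Figure D1:**
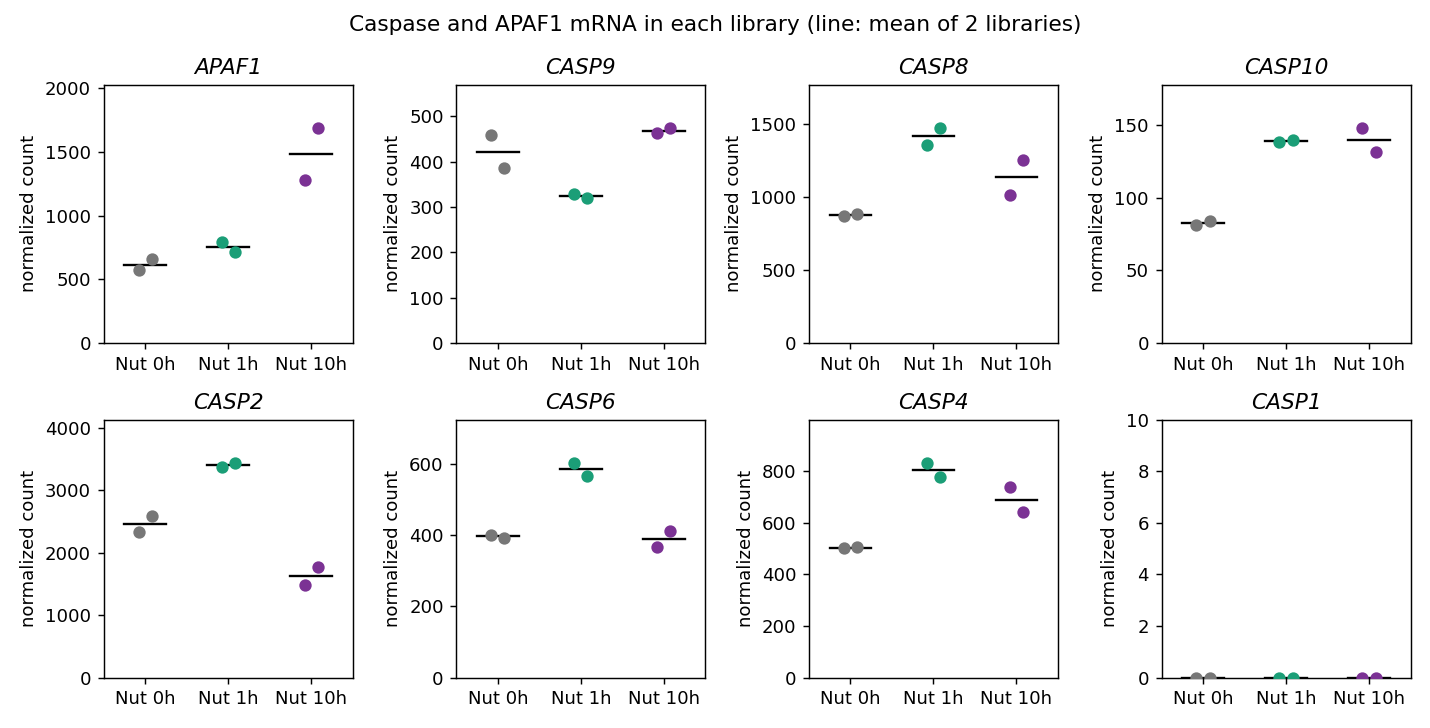
Normalized counts (y axis, from 0, a scale for each gene) of the 8 genes in the 2 libraries of each time point (x axis); points are libraries and lines the mean of 2. APAF1 stands highest at Nut 10h, with 1283 and 1688, CASP2 lowest there, with 1478 and 1773, and CASP1 is at 0 throughout.

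APAF1, the scaffold of the apoptosome (ENSG00000120868, chromosome 12 of GRCh37, 99039068 to 99129211, plus strand), had the largest change of the 7 tested genes at Nut 10h. It had 575 and 655 normalized counts in the vehicle libraries, 789 and 717 in those of Nut 1h, and 1283 and 1688 in those of Nut 10h. Both Nut 10h libraries lay above all others, and they also differed most from each other. Against Nut 0h it rose 2.41-fold at Nut 10h, a log2 fold change of 1.27 (SE 0.13, adjusted p = 5.31e-06, edgeR). It also rose between Nut 1h and Nut 10h, by 0.98 on the log2 scale (SE 0.13, adjusted p = 1.42e-05, edgeR).
At Nut 1h the log2 fold change of APAF1 was 0.29 (SE 0.13) and missed the threshold (adjusted p = 0.068, edgeR), although the libraries of Nut 1h and Nut 0h did not overlap. The offset turned the sign, to -0.28 (SE 0.10, adjusted p = 0.0251, edgeR). The 1365 tested genes within 1 percentage point of its transcript GC content of 41.8% had a median of 0.55, with quartiles of 0.26 and 0.84, so that APAF1 stood below their median and inside their quartiles. Without the offset APAF1 passed the threshold when the fit held the 2 compared groups alone (0.26, adjusted p = 0.0436, edgeR). It also passed with a replicate block, the replicate number as a further term (0.30, adjusted p = 0.0435, edgeR). A block with the Nut 1h numbers crossed, chosen after seeing the data, gave 0.29 (adjusted p = 0.0014, edgeR). With each library left out in turn the log2 fold change spanned 0.19 to 0.38. In the annotation 750 bases of APAF1 exons overlap ANKS1B on the other strand, and ANKS1B had at most 1 count in any library.

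CASP9, the initiator that the apoptosome activates (ENSG00000132906, chromosome 1, 15817327 to 15853029, minus strand), moved differently from APAF1. It had 458 and 387 normalized counts in the vehicle libraries, 329 and 320 in those of Nut 1h, and 463 and 475 in those of Nut 10h. The Nut 1h libraries were the lowest, and the Nut 10h libraries lay just above those of Nut 0h. CASP9 was the single member called lower at Nut 1h, at -0.38 in log2 (SE 0.12, adjusted p = 0.0134, edgeR), which became -0.14 with the GC-content offset (adjusted p = 0.32, edgeR). Its transcript GC content, 52.8%, was the highest of the 8 genes. The call was also lost without Nut 0h replicate 1 (-0.26, adjusted p = 0.138, edgeR), without Nut 1h replicate 1 (-0.40, adjusted p = 0.0677), and when Nut 1h replicate 2 was left out (-0.37, adjusted p = 0.0782). At Nut 10h the log2 fold change was 0.15 (SE 0.12, adjusted p = 0.37, edgeR).
Per kilobase of exon, APAF1 stood to CASP9 at a ratio of 0.852 and 1.15 in the vehicle libraries, 1.63 and 1.52 in those of Nut 1h, and 1.88 and 2.42 in those of Nut 10h. The ratio was thus around 1 at Nut 0h and at least 1.52 in every treated library. These ratios carry no offset, and with it the Nut 1h log2 fold change of APAF1 (-0.28) was below that of CASP9 (-0.14), so that the direction at Nut 1h turned. CELA2B, which shares 101 exonic bases with CASP9 on the other strand, had at most 5 counts in any library.

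CASP8, the initiator at death receptors (ENSG00000064012, chromosome 2, 202098166 to 202226559, plus strand), was highest at Nut 1h. It had 872 and 886 normalized counts in the vehicle libraries, 1360 and 1475 in those of Nut 1h, and 1014 and 1258 in those of Nut 10h. The 3 groups did not overlap. Against vehicle it rose by 0.69 on the log2 scale at Nut 1h (SE 0.11, adjusted p = 0.000103, edgeR) and by 0.37 at Nut 10h (SE 0.11, adjusted p = 0.0247, edgeR). The Nut 1h value became 0.16 with the GC-content offset (adjusted p = 0.144, edgeR), and the Nut 10h value 0.34 (adjusted p = 0.00469, edgeR).
The Nut 10h call of CASP8 was lost when a single library was left out in 5 of 6 cases. The log2 fold change was 0.36 without Nut 0h replicate 1 (adjusted p = 0.0888, edgeR) and 0.38 when the other vehicle library was left out (adjusted p = 0.0562). It was 0.37 without either library of Nut 1h (adjusted p = 0.0607 and 0.0627), and 0.22 without Nut 10h replicate 2 (adjusted p = 0.219). In the annotation 343 exonic bases of CASP8 are shared with an unnamed non-coding gene on the same strand.

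CASP10, the close relative of CASP8 (ENSG00000003400, chromosome 2, 202047595 to 202094151, plus strand), was the least abundant of the tested members. Its raw counts were 84 and 89 in vehicle, 138 and 111 after 1 h, and 153 and 141 after 10 h. In normalized counts these were 81.2 and 83.6, 138 and 140, and 148 and 131. All 4 treated libraries lay above both Nut 0h libraries. CASP10 rose 1.69-fold by 1 h (0.75 in log2, SE 0.17, adjusted p = 0.00148, edgeR) and also 1.69-fold by 10 h (0.76, SE 0.17, adjusted p = 0.00398, edgeR). It was the single member called higher at Nut 1h also with the GC-content offset (0.45, SE 0.17, adjusted p = 0.0361, edgeR). Between Nut 1h and Nut 10h the difference was 0.00471 (SE 0.16, adjusted p = 0.981, edgeR).

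CASP8 and CASP10 lie on chromosome 2 with their starts 50.6 kb apart, and CFLAR, whose product c-FLIP resembles caspase-8 without being an active protease and blocks its activation, starts 117 kb before CASP8. From a vehicle mean of 864 normalized counts CFLAR rose to 1184 after 1 h (0.45 in log2, adjusted p = 0.00153, edgeR) and to 1649 after 10 h (0.93, adjusted p = 1.09e-05, edgeR). The offset brought its Nut 1h value to 0.02. Per kilobase, CFLAR stood to CASP8 at 0.298 and 0.334 in vehicle, 0.286 and 0.253 after 1 h, and 0.499 and 0.442 after 10 h. CASP8 stood to CASP10 at 13.2 and 13.1, 12.1 and 13, and 8.45 and 11.8 in the same order. Of 8 other tested protein-coding genes around them 7 were called higher at Nut 1h, like CASP8, CASP10 and CFLAR. The share over all tested genes was 34.5%. With the offset 0 were higher and 2 lower, where 20% and 25.4% of genes were. For Nut 10h 0 were called higher and 2 lower, NIF3L1 (-0.58, adjusted p = 0.001, edgeR) and TMEM237 (-0.39, adjusted p = 0.0175, edgeR), where 14.1% and 14.9% of all tested genes were. The offset made this 2 higher and 3 lower, where 17.1% and 22.8% of genes were.

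**Figure D2:**
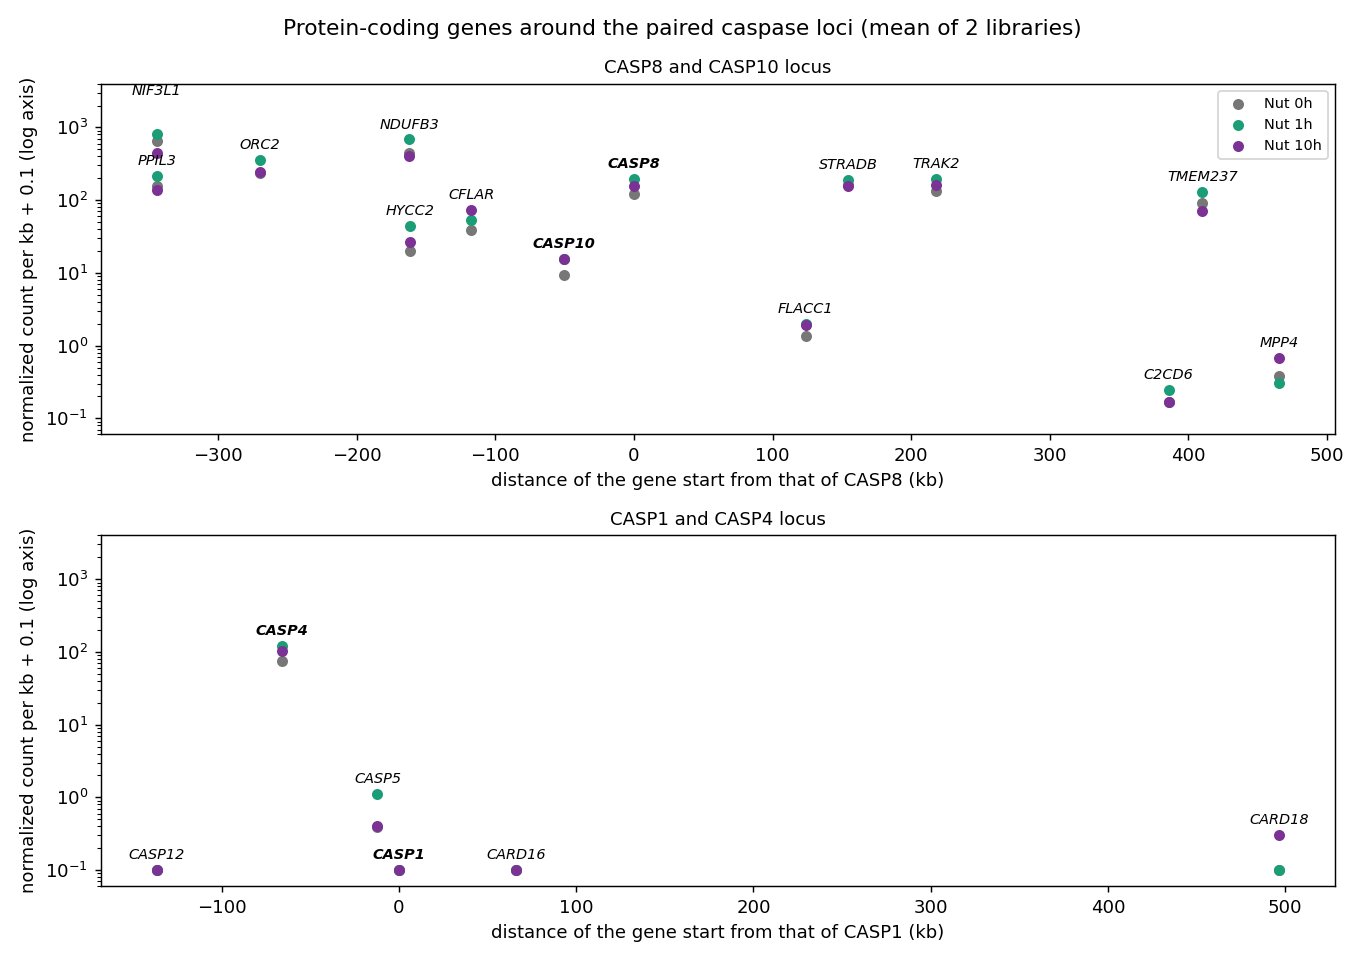
Mean normalized count per kilobase of exon plus 0.1 (log y axis) at the 3 time points for protein-coding genes around CASP8 and CASP10 (top) and around CASP1 and CASP4 (bottom), by the distance of each gene's start (x axis, kb); members are in bold and genes without counts sit at 0.1. CASP8 (121 at Nut 0h) lies above CASP10 (9.23) in its locus, and CASP4 (75.5) is the one gene with more than 5 counts in the other.

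CASP2, the initiator linked to the PIDDosome (ENSG00000106144, chromosome 7, 142985308 to 143004789, plus strand), was the most abundant member and the one that fell at Nut 10h. It had 2330 and 2591 normalized counts in the vehicle libraries, 3375 and 3441 in those of Nut 1h, and 1478 and 1773 in those of Nut 10h. The 3 groups did not overlap, and the order was Nut 1h above Nut 0h above Nut 10h. At Nut 10h the log2 fold change was -0.60 (SE 0.11, adjusted p = 0.000712, edgeR), a level 0.661 times that of Nut 0h, and with the GC-content offset it was -0.63. At Nut 1h it was 0.47 (SE 0.10, adjusted p = 0.00118, edgeR), close to the median of 0.44 of the 1280 genes of like GC content. The offset left 0.00595 at Nut 1h (adjusted p = 0.954, edgeR). From Nut 1h to Nut 10h CASP2 fell by 1.07 on the log2 scale (SE 0.11, adjusted p = 8.29e-07, edgeR), and by 0.64 with the offset.

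CASP6, the effector caspase among the members (ENSG00000138794, chromosome 4, 110609778 to 110624739, minus strand), had 400 and 393 normalized counts in the vehicle libraries, 603 and 565 in those of Nut 1h, and 367 and 411 in those of Nut 10h. The Nut 1h libraries stood above the others, and those of Nut 0h and Nut 10h overlapped. On the log2 scale CASP6 rose by 0.56 at Nut 1h (SE 0.11, adjusted p = 0.000531, edgeR) and was at -0.03 at Nut 10h (SE 0.11, adjusted p = 0.895, edgeR). Under the offset the Nut 1h value was 0.04 (adjusted p = 0.745, edgeR). MCUB, a regulator of the mitochondrial calcium uniporter, shares 98 exonic bases with CASP6 on the other strand and had means of 564, 693 and 361 normalized counts, so reads in the shared bases are uncertain unless the counting used the strand.

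CASP4, the inflammatory caspase (ENSG00000196954, chromosome 11, 104813593 to 104840093, minus strand), had 502 and 504 normalized counts in the vehicle libraries, 832 and 778 in those of Nut 1h, and 737 and 640 in those of Nut 10h. All treated libraries lay above those of Nut 0h. In log2 CASP4 rose by 0.68 at Nut 1h (SE 0.11, adjusted p = 8.65e-05, edgeR) and by 0.45 at Nut 10h (SE 0.11, adjusted p = 0.00675, edgeR). Its transcript had the lowest GC content of the 8 genes, 38.3%, and the 1141 genes of like GC content had a median of 0.74 at Nut 1h. Under the offset the Nut 1h value was -0.07 (adjusted p = 0.643, edgeR) and the Nut 10h value 0.43 (adjusted p = 0.00411, edgeR).
CASP1, which cleaves the precursors of interleukin-1 beta and interleukin-18 (ENSG00000137752, chromosome 11, 104896124 to 104905977, minus strand), had 0 reads in each of the 6 libraries. The upper limit for 0 reads is 3, equal to 0.0846 CPM (counts scaled to library size) in the deepest library and 0.115 in the shallowest, for counting error only. A change of CASP1 was not detectable at this depth. In the same locus CASP5 had 5 counts in all libraries together, CARD18 had 1, and CASP12, CARD16 and CARD17 had 0, so that CASP4 was the one inflammatory caspase with counts to test.

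**Figure D3:**
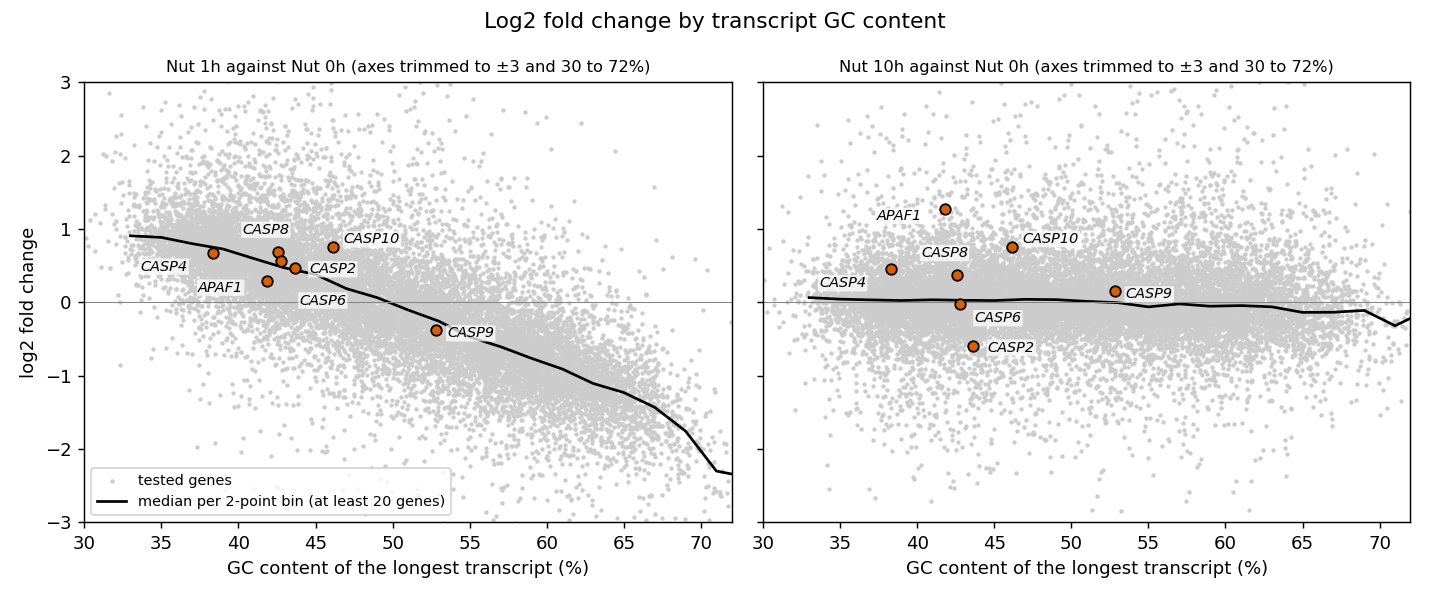
Log2 fold change (y axis) by GC content of the longest transcript (x axis, %) for tested genes (gray), with the median per bin (line) and the 7 tested members (orange), at Nut 1h (left) and Nut 10h (right). At Nut 1h CASP2 (0.47), CASP4 (0.68) and CASP6 (0.56) lie near the line, CASP10 (0.75) above it and APAF1 (0.29) below it. At Nut 10h the line is flat, with APAF1 (1.27) furthest above it and CASP2 (-0.60) furthest below it.

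The order of the members was compared by level per kilobase of exon. The exon lengths may differ from the exons in which reads were counted, so levels of different genes per kilobase are approximate. At Nut 0h CASP2 led, with a mean of 307 normalized counts per kilobase, followed by CASP6 with 204 and CASP8 with 121, and these 3 did not overlap. CASP9 (80.2), APAF1 (79.3) and CASP4 (75.5) followed with overlapping libraries, then CASP10 (9.23). At Nut 10h the means of CASP2 (203), CASP6 (200) and APAF1 (191) were close, with overlapping libraries, and CASP8, overlapping APAF1, was at 157, CASP4 at 103, CASP9 at 89.0 and CASP10 at 15.6. APAF1 made up 8.59% and 9.49% of the members' summed level per kilobase in the vehicle libraries, and 18.5% and 21.2% of it in those of Nut 10h. CASP2 made up 33.7% and 36.3%, and 20.6% and 21.6%.
The profiles of members over the 3 time points were compared by the Euclidean distance of their centred log2 means. CASP4 and CASP8 were the most alike, at 0.07, and CASP2 and APAF1 the least alike, at 1.60. These distances carry no offset. From the fold changes with the offset, CASP4 and CASP8 stood 0.23 apart and CASP8 and CASP9 were the closest pair, at 0.22, while CASP2 and APAF1 were again the least alike, at 1.65. Among 11575 other tested genes averaging 100 normalized counts or more, the nearest to APAF1 were RPL3P4 (0.03), PIGCP1 (0.04) and S100A2 (0.045). The first 2 are pseudogenes, whose counts are uncertain because near-identical copies share reads. With the offset their distances from APAF1 were 0.53, 0.35 and 0.76, so the likeness depends on it.

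Between Nut 1h and Nut 10h, 5 of the 7 members were called, 2 higher and 3 lower, where 67.9% of all tested genes were called (34.2% higher, 33.7% lower). Their median was -0.23, against -0.02 over all tested genes. APAF1 and CASP9 were higher at Nut 10h than at Nut 1h, CASP9 by 0.53 (SE 0.12, adjusted p = 0.00143, edgeR). CASP2, CASP6 and CASP8 were lower, CASP6 by -0.59 (adjusted p = 0.00036, edgeR) and CASP8 by -0.32 (adjusted p = 0.0216, edgeR). Under the offset, where 58% of genes were called (29.2% higher, 28.8% lower), 3 were called, APAF1 higher (1.52), CASP2 lower (-0.64) and CASP4 higher (0.50, adjusted p = 0.000634, edgeR), where CASP4 without the offset was at -0.23 (adjusted p = 0.076, edgeR). CASP8 turned to 0.18 with the offset and was not called (adjusted p = 0.0863, edgeR). The CASP8 call was also lost without Nut 1h replicate 1 (-0.38, adjusted p = 0.0554), Nut 1h replicate 2 (-0.26, adjusted p = 0.175) or Nut 10h replicate 1 (-0.13, adjusted p = 0.368).

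**Figure D4:**
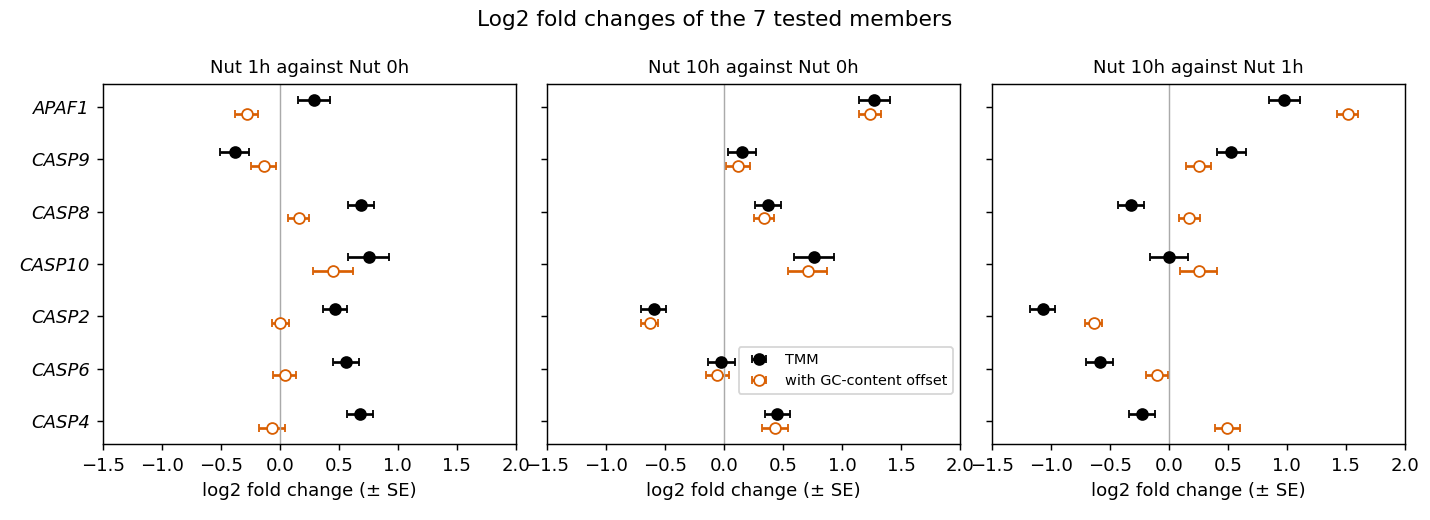
Log2 fold changes with their standard errors (x axis) of the 7 tested members (y axis) in the 3 comparisons; black points are the TMM-normalized values and open orange points those with the GC-content offset. At Nut 10h against Nut 0h the 2 lie close together (APAF1 1.27 and 1.24), whereas at Nut 1h CASP4 moves from 0.68 to -0.07 and APAF1 from 0.29 to -0.28.

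Around the members, 41 genes in 4 lists were examined, of which 30 were tested. At Nut 1h 12 of the 30 were called higher and 10 lower, with a median of 0.09, where 66.9% of all tested genes were called. At Nut 10h 7 were called higher and 3 lower, with a median of -0.09, where 29% of all tested genes were called. Both counts are near those shares. With the offset 5 and 9 were called at the early time point, and 7 and 8 at the late one.
Of 13 adaptors and platforms 7 were tested, with 2 called higher and 4 lower at Nut 1h (0 and 3 with the offset), and 2 higher and 1 lower at Nut 10h. NLRP1, an inflammasome sensor, rose at Nut 10h from a mean of 165 to 722 normalized counts (log2 fold change 2.13, SE 0.13, adjusted p = 2.21e-08, edgeR). FADD, which couples death receptors to CASP8, fell from 577 to 149 at Nut 1h (-1.96, SE 0.16, adjusted p = 2.93e-07, edgeR; -1.34 with the offset) and was at 415 at Nut 10h (-0.48, adjusted p = 0.0204, edgeR). PIDD1, the PIDDosome scaffold for CASP2 (listed as PIDD), fell at Nut 1h (-1.63, edgeR; -0.28 with the offset) and rose at Nut 10h (0.43, adjusted p = 0.00551, edgeR). The inflammasome genes PYCARD, NLRP3 and AIM2 had at most 4 counts in any library.
All 8 apoptosome cofactors and inhibitors were tested, with 4 called higher and 2 lower at Nut 1h (2 and 3 with the offset), while at Nut 10h 8 missed the threshold, of which 3 were called lower with the offset. XIAP, which inhibits caspases, had a log2 fold change of 1.21 at Nut 1h (0.50 with the offset) and 0.00751 at Nut 10h (SE 0.10). CYCS, which encodes cytochrome c, had 0.93 at Nut 1h (0.32 with the offset) and fell from Nut 1h to Nut 10h (-1.06, edgeR). HTRA2, a mitochondrial protease that binds XIAP, had -1.21 at Nut 1h and -1.36 with the offset.
Of 14 caspase substrates 12 were tested, with 3 called higher and 4 lower at Nut 1h (2 and 3 with the offset), and 4 higher and 2 lower at Nut 10h. LMNB1, which encodes lamin B1, fell at Nut 10h from a mean of 5988 to 1877 (-1.67, SE 0.09, adjusted p = 1.11e-08, edgeR). GSDME, a gasdermin that opens pores once cleaved (listed as DFNA5), rose at Nut 10h (0.69, SE 0.13, adjusted p = 0.00109, edgeR). At Nut 1h GSDMD, the gasdermin cut by CASP1 and CASP4, was at -0.89 and turned to 0.34 with the offset, and VIM was at -1.29 (-1.53 with the offset) with means of 76.2 and 30.6. LMNA was higher at Nut 10h than at Nut 1h (1.34, edgeR; 0.44 with the offset).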

How the data were processed

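HCT116 RNA-seq was analysed for vehicle, Nut 1h and Nut 10h, with 2 libraries per group as the sample titles give them. The authors trimmed reads with Trim Galore (0.6.6), mapped them to GRCh37.p13 with STAR (2.7.0f) and counted them per gene with featureCounts (Subread 2.0.0); the deposited matrix holds these raw counts. Strand setting and multimapping are not given in the sources used here, so values of overlapping genes are uncertain. The annotation used for counting is not given there either, so ratios of different genes per kilobase are approximate. The authors' deposited table of their own DESeq2 comparisons was read for gene symbols only.

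Counts were filtered with filterByExpr, normalized by TMM and tested with edgeR (4.0.16, R 4.3.3), with the time point as the only term. DESeq2 (1.42.0) was an alternative. Standard errors came from the fold change and the F statistic. Positions, exon lengths and transcript GC content (97.4% of tested genes) came from GENCODE v44 lifted to GRCh37, matched by gene identifier. The offset was a loess trend (span 0.4). The fit was tested on simulated data. The alternatives were other normalizations, filters, designs, thresholds and each library left out.

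The members, the gene lists and the tests were chosen with earlier results of these data known. Named were all 8 members, CDKN1A and MDM2 as checks, the 2 largest called changes of each list in each comparison, list genes at a member's locus, and the 3 genes nearest in profile to APAF1 among those averaging 100 normalized counts or more; CASP1 without counts could not be compared. Other names were chosen after their values were seen. Single results of some genes in these lists are not reported here. Replicates differed by more than sampling noise (chi-square per degree of freedom 4.93 to 16.0).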

Additional observations from a re-analysis of the deposited data

Results flagged for a closer look

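For 5 members the effects at the 2 time points differed from each other in a direct test, in which the shared Nut 0h libraries cancel (Nut 10h minus Nut 1h, edgeR's quasi-likelihood test). The difference was -1.07 for CASP2 (adjusted p = 8.29e-07), -0.59 for CASP6 (adjusted p = 0.00036), -0.32 for CASP8 (adjusted p = 0.0216), 0.53 for CASP9 (adjusted p = 0.00143) and 0.98 for APAF1 (adjusted p = 1.42e-05), on the log2 scale. These are 5 of 7 tested members, where 67.9% of all tested genes were called in this comparison, so the share is near that of all genes. With the GC-content offset CASP2 (-0.64) and APAF1 (1.52) remained called. The other 3 of these 5 were not, with CASP6 at -0.10 (adjusted p = 0.386, edgeR) and CASP9 at 0.25 (adjusted p = 0.0501, edgeR). CASP8 turned sign, to 0.18.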

How the results depend on the processing

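Of 399 member values under an alternative, 339 kept their direction and their side of the threshold, 40 lost the call, 7 gained it and 13 turned sign. The stricter adjusted p and the minimum fold change reused the main fit, so under them a value could lose a call but not turn sign. The crossed replicate block, chosen after seeing the data, is counted among the alternatives. With the GC-content offset, alone or with the replicate block, 2 members were called at Nut 1h and 3 between the treated groups. Over all genes 7332 were then called at Nut 1h (7085 with the block), and 14 of the pathway genes under either. The following signs turned with the offset, and again with the block in it: CASP4 at Nut 1h (-0.0673, -0.0706), APAF1 at Nut 1h (-0.28, -0.27), CASP4 (0.50, 0.49) and CASP8 (0.18, 0.17) between Nut 1h and Nut 10h. The cause was not tested. Uncalled values near 0 also turned. CASP6 at Nut 10h was 0.0217 with upper quartile normalization, and CASP10 between Nut 1h and Nut 10h was -0.0127 with a minimum of 50 counts.

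With a minimum absolute log2 fold change of 1, 0 members were called at Nut 1h, 1 at Nut 10h (APAF1) and 1 between them (CASP2). Over all genes 3974, 1135 and 4746 were then called, and of the pathway genes 7, 2 and 9. With each library left out in turn, the log2 fold change of APAF1 at Nut 10h spanned 1.07 to 1.46. That of CASP2 spanned -0.72 to -0.47, and that of CASP8 0.22 to 0.52. CASP6 at Nut 10h then spanned -0.0948 to 0.0563, and the CASP10 difference of the treated groups -0.0439 to 0.141.

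For libraries of the same replicate number, deviations from the group mean correlated across genes at 0.22 between Nut 0h and Nut 10h. The correlation was -0.15 between Nut 0h and Nut 1h and -0.14 between Nut 1h and Nut 10h. Whether the samples are paired across time points was not tested. With the replicate block 7 members were called at Nut 1h, APAF1 being added (0.30, adjusted p = 0.0435, edgeR), and no other member's call changed. With the Nut 1h numbers crossed, chosen after seeing the data, 7631 genes and 16 pathway genes were called at Nut 10h, APAF1 was called at Nut 1h (adjusted p = 0.0014, edgeR), and CASP4 was called lower at Nut 10h than at Nut 1h (-0.23, adjusted p = 0.0125, edgeR), opposite in sign to its value with the offset. At an adjusted p of at most 0.01 in the main fit, 2980 genes were called at Nut 10h against Nut 0h. DESeq2 called as many members as edgeR in each comparison. CASP1 and CASP5 had too few counts to be tested, and CASP10 had 84 to 153 counts per library.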
